A study of Rattus norvegicus with 6 samples.

Results

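Antimicrobial, calprotectin and acute phase genes of mammary epithelium and neutrophils were followed in 6 rat mammary tumors profiled by bulk RNA-seq. The set holds 10 genes picked by symbol: Lcn2, Ltf, Lpo, S100a8, S100a9, Camp, Cp, Lbp, Defb1 and Slpi. All 10 have a row in the deposited count table, which lists 30562 rows. The older group comprised tumors 102, 107 and 116, from female F344 rats, an inbred strain, that came from the National Institute on Aging colonies at 19 to 21 months and received carcinogen at 21 to 23 months. The younger group comprised tumors 157, 158 and 167, from virgin female F344 rats bought from Envigo at 6 to 8 weeks and treated at 4 months. Animals of both groups carried a 50 mg subcutaneous pellet of medroxyprogesterone acetate (MPA), a progestin released over 90 days, and were gavaged once with 65 mg/kg DMBA, a carcinogen. Age and the source of the rats cannot be told apart, every tumor is 1 library, and the tumors from older rats were those with enough tissue. The labels do not tie tumors to animals. For exome sequencing, done on the same group of tumors, the paper counts 3 older and 3 younger rats. The tests measure the spread between these tumors.

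These genes belong to the innate defence of wet epithelia. Their products starve microbes of iron or of zinc and manganese, oxidize or puncture them, sense bacterial lipopolysaccharide or block the proteases that neutrophils release. Neutrophils carry several of them in granules or cytosol, the liver secretes the acute phase members into plasma, and the mammary epithelium itself makes others and passes them into milk.

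Only 5 of the 10 genes had enough reads to be compared between age groups: Lcn2, Lpo, Cp, Lbp and Slpi passed edgeR's filter on low counts, which left 14060 of the 30562 rows. The other 5 (Ltf, S100a8, S100a9, Camp and Defb1) summed to between 2 and 16 reads per tumor. The labelled tissue was represented by its own markers, since all 5 epithelial markers found in the table and all 7 markers of secretory alveolar cells were tested. Libraries held from 3508571 to 6525830 counts, and 3 counts, taken as the floor, correspond to between 0.518 and 0.995 CPM (the count relative to the library total after TMM scaling). These limits cover counting error only. As the table gives no transcript lengths, levels are compared between tumors for the same gene and not between genes.

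Of the 5 tested genes 4 had the same extremes. Lcn2, Lpo, Cp and Lbp were highest in tumor 158 and lowest in tumor 167, both from younger rats, an order found in 5.09% of all genes tested. For these 4 genes every older tumor therefore lay inside the range of the younger ones. The window of 300 bases around the annotated start (250 before and 50 after, from RefSeq, build GRCr8) was available for 6 of the 10 genes, 3 of them in this group. The 250 bases before the start are shown for these 3 because their genes share these extremes, though not the order of the other tumors. Capitals mark matches to a C/EBP motif (TTGCNNAA) or an NF-kB motif (GGGA and CC with any 4 bases between) on either strand.
Lcn2, chr3:36081781-36082030, - strand: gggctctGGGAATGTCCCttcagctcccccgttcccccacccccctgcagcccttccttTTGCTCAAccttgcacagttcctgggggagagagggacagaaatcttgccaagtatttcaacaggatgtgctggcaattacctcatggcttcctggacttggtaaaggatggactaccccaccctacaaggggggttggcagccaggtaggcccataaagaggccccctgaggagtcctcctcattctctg
Lpo, chr10:73123457-73123706, - strand: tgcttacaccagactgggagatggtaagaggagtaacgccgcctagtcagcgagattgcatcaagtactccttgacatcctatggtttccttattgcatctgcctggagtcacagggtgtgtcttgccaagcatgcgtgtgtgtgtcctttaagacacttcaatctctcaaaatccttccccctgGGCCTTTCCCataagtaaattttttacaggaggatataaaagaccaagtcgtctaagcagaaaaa
Cp, chr2:104368420-104368669, + strand: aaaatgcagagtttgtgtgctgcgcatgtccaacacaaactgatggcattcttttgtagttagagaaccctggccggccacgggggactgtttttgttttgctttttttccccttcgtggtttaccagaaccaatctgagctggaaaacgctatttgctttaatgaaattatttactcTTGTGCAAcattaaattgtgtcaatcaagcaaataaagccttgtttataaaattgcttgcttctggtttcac
The Lcn2 window held the C/EBP letters 191 bases before the start and a pair of overlapping NF-kB matches from 243 bases before it. Lpo held 1 NF-kB match at 65 bases before the start and Cp 1 C/EBP match at 72 bases before it. Of the windows outside this group, that of Camp held 1 NF-kB match from base 19 after the start. The windows of Ltf and S100a9 held none. A STAT motif (TTCNNNGAA) was in none of the 6 windows. Among all 33469 windows of this length, 10.6% held the C/EBP letters, 19.3% the NF-kB letters and 8.87% the STAT letters, so each match is common and is given as a description of the sequence alone.

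Lcn2 encodes lipocalin 2, which binds the siderophores that bacteria use to take up iron. It measured 46.4 CPM in tumor 102, 26.7 in tumor 107 and 60.7 in tumor 116 from older rats. In tumors from younger rats it measured 83.1 CPM in tumor 157, 274 in tumor 158 and 19.6 in tumor 167. The younger tumors spanned a 14-fold range and the older ones a 2.27-fold range lying inside it. Means were 44.6 ± 17.1 CPM (SD, n = 3) in older and 126 ± 133 CPM (SD, n = 3) in younger tumors, a log2 fold change of -1.5 (± 0.81 standard error, SE, with a 95% interval -3.39 to 0.40, edgeR adjusted p = 0.716). The difference was smaller than the spread among younger tumors and rested on tumor 158, without which it was -0.20.

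Lpo encodes lactoperoxidase, the peroxidase of milk and other secretions that turns thiocyanate into a bactericidal oxidant. It varied more over the 6 tumors than 99.9% of all genes tested, by the SD of log2 CPM (2.70, with a prior count of 2). Older tumors had 139 CPM (tumor 102), 55.1 (tumor 107) and 14.4 (tumor 116). Younger tumors had 79.7 CPM (tumor 157), 1120 (tumor 158) and 4.54 (tumor 167), a 246-fold range with the highest and the lowest value of the 6 tumors. Means were 69.4 ± 63.3 CPM (SD, n = 3) in older and 400 ± 621 CPM (SD, n = 3) in younger tumors. The log2 fold change of -2.53 (± 1.58 SE, 95% interval -6.20 to 1.14, edgeR adjusted p = 0.769) turned to 0.71 without tumor 158. It compares group means and so follows the largest value, whereas the mean log2 CPM was 5.60 in older and 6.25 in younger tumors.

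**Figure D1:**
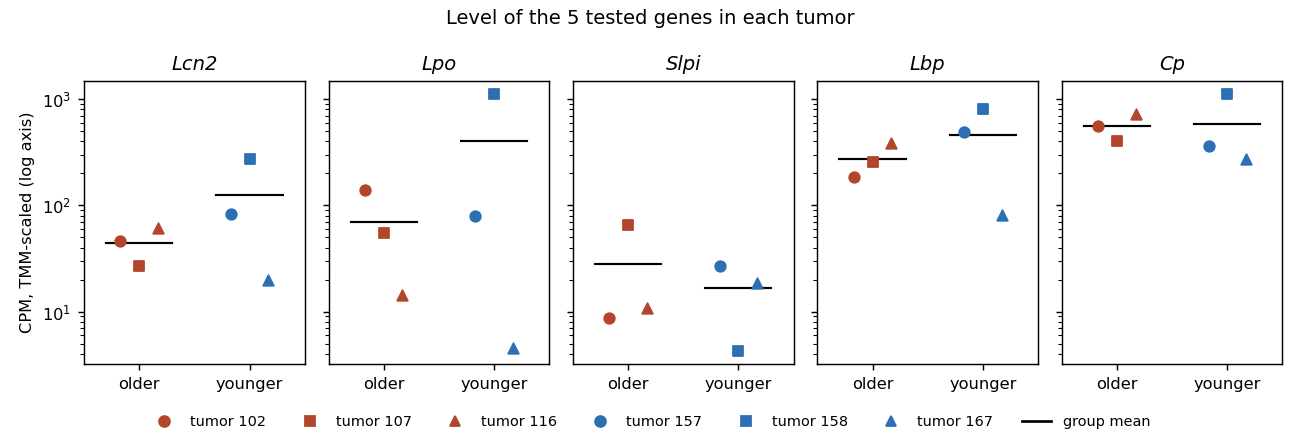
Each point is 1 tumor and the y axis gives its TMM-scaled CPM on a log axis, with a panel for each of the 5 tested genes and a line at the mean of each age group. Tumor 158 is highest and tumor 167 lowest for Lcn2, Lpo, Lbp and Cp, while Slpi is lowest in tumor 158, at 4.24 CPM, and highest in tumor 107, at 65.1 CPM.

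The acute phase members Cp and Lbp were counted in every tumor. Cp encodes ceruloplasmin, a copper-bearing ferroxidase of plasma and milk, and it was the steadiest of the tested members. Its levels were 563 CPM (tumor 102), 403 (tumor 107) and 717 (tumor 116) in older tumors. In younger tumors they were 364 CPM (tumor 157), 1120 (tumor 158) and 275 (tumor 167). The group means nearly coincided, at 561 ± 157 CPM (SD, n = 3) in older and 586 ± 463 CPM (SD, n = 3) in younger tumors, while the younger ones spread 4.07-fold. The log2 fold change was -0.06 (± 0.55 SE, 95% interval -1.33 to 1.21, edgeR adjusted p = 0.988). Its direction was not settled, since it was 0.82 without tumor 158 and 0.11 without tumor 107.

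Lbp encodes the protein that hands bacterial lipopolysaccharide to CD14. It measured 184 CPM in tumor 102, 256 in tumor 107 and 386 in tumor 116 from older rats, and 495 in tumor 157, 814 in tumor 158 and 80.5 in tumor 167 from younger rats. Tumors 157 and 158 lay above every older tumor and tumor 167 lay below, a 10.1-fold range within the younger group. Means were 276 ± 102 CPM (SD, n = 3) in older and 463 ± 368 CPM (SD, n = 3) in younger tumors. The log2 fold change of -0.75 (± 0.71 SE, 95% interval -2.41 to 0.91, edgeR adjusted p = 0.873) was -0.05 without tumor 158.

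Slpi encodes a secreted inhibitor of neutrophil elastase with antimicrobial activity, and its extremes differed from those of the other 4 genes. Older tumors had 8.62 CPM (tumor 102), 65.1 (tumor 107) and 10.7 (tumor 116), and younger tumors had 26.6 CPM (tumor 157), 4.24 (tumor 158) and 18.6 (tumor 167). It was lowest in tumor 158, where the other 4 peaked, and highest in tumor 107, as were 3.77% of all genes tested, and the age groups overlapped. Means were 28.1 ± 32.0 CPM (SD, n = 3) in older and 16.5 ± 11.3 CPM (SD, n = 3) in younger tumors, a log2 fold change of 0.78 (± 0.89 SE, 95% interval -1.30 to 2.85, edgeR adjusted p = 0.903). Tumor 107 carried the older mean, and without it the log2 fold change was -0.76.

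With p-values adjusted over all genes, 0 of the 5 tested members passed 0.05 in edgeR's quasi-likelihood test, where 0% of the 14060 genes tested did. At an unadjusted p under 0.05 there were also 0 of 5, against 8.56% of all genes, and 0 of 5 had age groups that did not overlap, against 12.2% of all genes. By sign alone 4 of the 5 log2 fold changes lay below 0, against 50.4% of all genes, and their median was -0.75 beside 0.00 over all genes. DESeq2's Wald test, which called 346 genes overall (2.47% of those with an adjusted p), called 0 of the 5. The 95% intervals of all 5 members include 0 and reach at least 0.40 above and 1.30 below it on the log2 scale, so these data do not show equal levels. Tumor 167 also weighed on the comparison: without it Lcn2 was at -2.00, Lpo at -3.12 and Lbp at -1.25, and 3 of the 5 members had an unadjusted p under 0.05, against 8.32% of the 14562 genes tested without it, while the smallest adjusted p among them was 0.521 (edgeR).

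**Figure D2:**
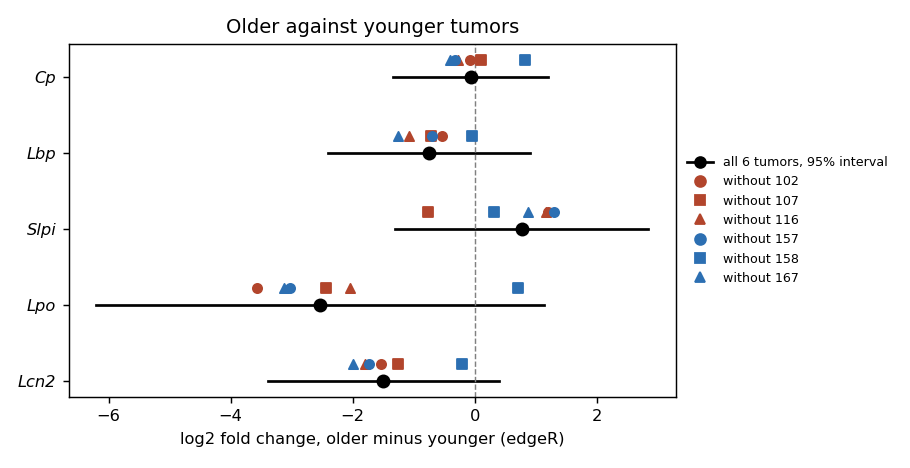
Black points are log2 fold changes of older against younger tumors from edgeR with all 6 tumors, and black lines their 95% intervals. The colored points above each line are the fits without 1 tumor, and leaving out tumor 158 moved Lcn2, Lpo, Lbp and Cp to the right, Lpo from -2.53 to 0.71.

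The other 5 genes were at or near the floor. Ltf encodes lactoferrin, an iron-binding protein of neutrophil granules and of the milk of many mammals. Its reads numbered 0, 0 and 9 in older tumors 102, 107 and 116 and 0, 2 and 1 in younger tumors 157, 158 and 167, so only tumor 116, at 1.75 CPM, stood above the floor. Its relative Tf, which encodes transferrin, the main iron-binding protein of rat milk, was by contrast counted 1783 to 94435 times per tumor. Tf ran from 426 CPM in tumor 167 to 16700 CPM in tumor 158, the same extremes as Lcn2, Lpo, Cp and Lbp.

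S100a8 and S100a9 lie on rat chromosome 2 and encode the subunits of calprotectin, a zinc- and manganese-binding protein that fills the cytosol of neutrophils. S100a8 had 0, 2 and 3 reads in older tumors 102, 107 and 116 and 11, 5 and 1 in younger tumors 157, 158 and 167. S100a9 had 0, 0 and 3 reads and 4, 2 and 0 reads in the same order. Tumor 157 had the most reads of both genes, and S100a8 summed to 5 reads in older and 17 in younger tumors. At no more than 1.9 CPM in any tumor, S100a8 missed the filter, which asked for about 2.14 CPM in at least 3 tumors.

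Camp, which encodes the rat cathelicidin, had 1 read in each of tumors 102, 107 and 158 and 0 in the others. Defb1, a beta-defensin that many epithelia make without induction, had 1 and 2 reads in tumors 102 and 107, 1 in tumor 157 and 0 elsewhere. No difference was detectable for these genes at this depth, and the highest level a count of 0 allows was 0.995 CPM, in tumor 102. The 10 other beta-defensin genes found in the table had 0 reads in all 6 tumors.

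Of 19 neutrophil markers listed, 3 (Cd177, Itgam and Mmp9) were tested, 0 passed the adjusted threshold (edgeR) and 3 (Ctsg, Cxcr1 and Np4) had no read in any tumor. Among the other granule genes Elane had at most 1, Mpo at most 10, Ngp at most 10 and Prtn3 at most 17 reads in any tumor. Elsewhere on the list, Mmp9 reached 217 reads in tumor 157 and Retnlg 119 in tumor 102. Among surface proteins, Itgam reached 244 reads in tumor 107, Cd177 46 and Cxcr2 38 in tumor 158, and Csf3r 20 in tumor 157. Fpr1 had at most 3 and Il1r2 at most 14 reads in any tumor. The list summed to between 24.7 and 139 CPM in older and between 6.45 and 62.4 CPM in younger tumors, with overlap. In tumor 158, where Lcn2, Lpo, Cp and Lbp peaked, it summed to 27.8 CPM. Of the 3 tested markers Itgam alone had age groups without overlap, higher in older tumors, against 6.57% of all genes. Its log2 fold change was 2.62 (± 0.67 SE, edgeR adjusted p = 0.322), beside -0.97 for Mmp9 and -0.34 for Cd177. The leading genes differed between tumors, with Itgam, which other myeloid cells also express, at 64 and Retnlg at 39.5 CPM in tumor 102, Mmp9 at 37.5 CPM in tumor 157 and Cd177 at 8.14 CPM in tumor 158. The part of neutrophils in the levels of the members was not tested. In bulk RNA, fewer cells of a type and less RNA per cell cannot be told apart.

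**Figure D3:**
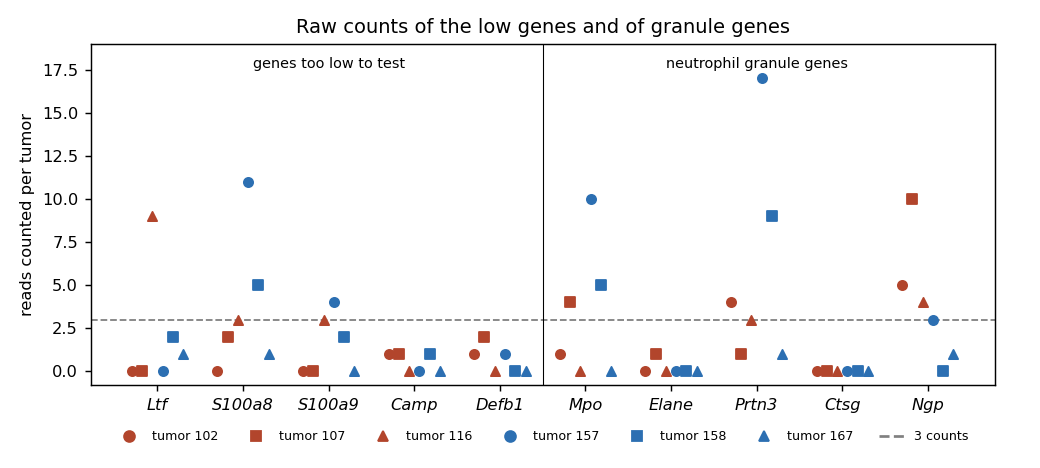
Raw reads per tumor are shown on the y axis for the 5 members too low to test, left, and for 5 neutrophil granule genes, right, with 1 point per tumor and a dashed line at 3 counts. S100a8 reached 11 reads and Prtn3 17 reads, both in tumor 157, and most other points lie at or under the dashed line.

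Of the hepatocyte markers, Alb, Ttr and Serpina1 had 0 reads in every tumor, and the 6 listed genes summed to between 1.99 and 10.9 CPM in older and between 2.15 and 3.54 CPM in younger tumors. On the same list Cyp2e1 had 4 to 29, Apoa2 0 to 4 and Apoa1 0 to 2 reads per tumor. The part of hepatocytes in the levels of Cp and Lbp was not tested. Both genes were counted in libraries in which Alb, Ttr and Serpina1 had no read. Other plasma acute phase genes divided in the same way: Crp, Apcs and Hamp had 0 reads, and 7 of 19 genes of that list were tested, with 0 past the adjusted threshold in either direction (edgeR, median log2 fold change 0.01). Ptx3, a long pentraxin made locally by many cells, measured 57.5 CPM in tumor 158 and between 2.15 and 14.2 CPM in the others. Fgg, a fibrinogen chain, measured 131 CPM in tumor 157 and between 1.33 and 23.8 CPM in the others. C3, the central complement component, was at 1240, 509 and 643 CPM in older tumors 102, 107 and 116 and at 132, 242 and 8.12 CPM in younger tumors 157, 158 and 167, a log2 fold change of 2.64 ± 0.99 SE (edgeR adjusted p = 0.499).

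The shared extremes of Lcn2, Lpo, Cp and Lbp were set beside the milk genes. Together, the 3 casein genes Csn1s1, Csn2 and Csn3 made up 14.3% of all counts in tumor 158 but 0.594% in tumor 167. These were the highest and lowest shares. Taken singly, Csn1s1 and Csn3 peaked in tumor 158, at 95600 and 36200 CPM. Csn2 was instead highest in tumor 102, at 107000 CPM, with 74300 in tumor 107 and 33700 in tumor 158. Of the other secretory markers, Wap, Elf5 and Glycam1 peaked in tumor 102 and Lalba in tumor 158. In older tumors 102, 107 and 116 the casein shares were 13%, 11% and 4.22%, and Lpo followed the same order at 139, 55.1 and 14.4 CPM. Lcn2, Cp and Lbp were instead highest among older tumors in tumor 116, at 60.7, 717 and 386 CPM. Taken per casein CPM, the SD of Lpo over the 6 tumors on the log2 scale, here without a prior count, was smaller, at 1.61 in place of 2.74. It was larger for Lcn2 (1.7 in place of 1.35), Lbp (1.59 and 1.17), Cp (1.5 and 0.73) and Slpi (2.64 and 1.37). These ratios were chosen after the values had been seen and carry no test. The casein sum itself varied widely between tumors. Dividing by it can raise the SD of a gene of small spread even where that gene follows the caseins. These SDs therefore cannot tell which members follow the caseins.

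**Figure D4:**
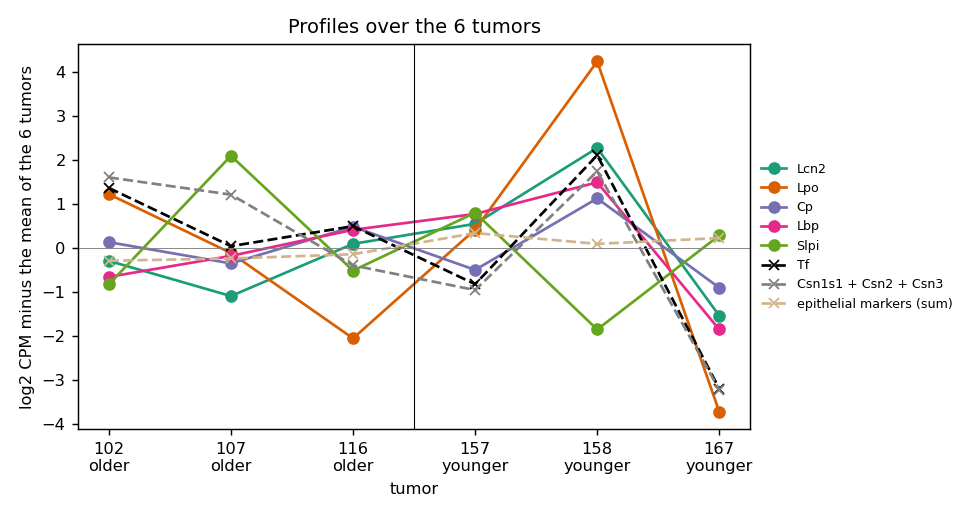
The y axis gives log2 CPM minus the mean over the 6 tumors on the x axis, with solid lines for the 5 tested members and dashed lines for Tf, the summed caseins and the summed epithelial markers. Lcn2, Lpo, Cp, Lbp, Tf and the summed caseins all peak in tumor 158 and are lowest in tumor 167, though Csn2 alone peaks in tumor 102. The epithelial sum stays nearly flat, and Slpi runs the other way in tumor 158.

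Some marker sums separated the age groups. The epithelial markers summed to between 1120 and 1240 CPM in older and between 1460 and 1730 CPM in younger tumors, with 5 of 6 genes found and 0 of 5 past the adjusted threshold. Relative to this sum, older minus younger mean log2 differences were -0.41 for Lcn2, -0.18 for Lpo, 0.62 for Cp, 0.17 for Lbp and 0.95 for Slpi, against -0.86, -0.62, 0.18, -0.28 and 0.50 in CPM. Relative to the summed caseins they were -2.47, -2.24, -1.44, -1.89 and -1.11 in the same order. The sign for Cp, Lbp and Slpi thus depended on the denominator, and these ratios carry no test. The macrophage markers summed to between 233 and 409 CPM in older and between 113 and 173 CPM in younger tumors, and the adipocyte markers to between 22.6 and 203 CPM and between 7.16 and 21.1 CPM. Of the macrophage markers 4 of 8 were higher in older tumors at an unadjusted p under 0.05, and of the adipocyte markers 1 of 4 tested. Over all genes 5.28% were, and 0 on either list passed the adjusted threshold (edgeR). Both cell types can express Lcn2 or Lbp, and the part of these cells in the values above was not tested. The secretory, luminal progenitor, basal, fibroblast, skin and muscle lists had overlapping sums in the age groups, and none of their tested genes passed the adjusted threshold (edgeR, 0 genes). At an unadjusted p under 0.05, 1 of 7 secretory (Glycam1), 1 of 5 luminal progenitor (Kit) and 1 of 2 muscle genes (Tnnt3) were higher in older tumors (edgeR). On the basal, fibroblast and skin lists 0 were, and on each of these lists 0 were lower.

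Other secreted defence genes formed a list of 19, of which 11 were tested and 0 passed the adjusted threshold (edgeR, median log2 fold change -0.33), with 2 higher and 1 lower in older tumors at an unadjusted p under 0.05, where all genes gave 5.28% higher and 3.27% lower. Wfdc18, a secreted protein of the same whey acidic protein family as Slpi, was at 0.332, 1.32 and 0.973 CPM in older tumors 102, 107 and 116 and at 11.4, 13.3 and 5.73 CPM in younger tumors 157, 158 and 167. Its log2 fold change was -3.44 ± 0.60 SE (edgeR adjusted p = 0.217), with counts near the floor in older tumors. Lyz2, which encodes lysozyme and is abundant in macrophages, went the other way, at 495, 812 and 324 CPM against 137, 79.9 and 40.8 CPM (log2 fold change 2.66 ± 0.53 SE, edgeR adjusted p = 0.248). Pigr, the receptor that carries IgA into milk, was at 155, 353 and 78.6 CPM against 20.6, 46.3 and 1.67 CPM (log2 fold change 3.09 ± 1 SE, edgeR adjusted p = 0.405). All 3 genes had age groups that did not overlap, a state found in 6.57% of all genes for the higher and 5.58% for the lower direction.

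Of the 13 genes listed beside calprotectin as other S100 genes, 8 were tested, and all 8 log2 fold changes lay below 0, as did 50.4% of all genes tested, with a median of -0.61 and 0 genes past the adjusted threshold. One of the 8 is S100pbp, which encodes a binding partner of an S100 protein and not an S100 protein, at -0.11. S100a11 was at 202, 210 and 263 CPM in older tumors 102, 107 and 116 and at 359, 651 and 335 CPM in younger tumors 157, 158 and 167 (log2 fold change -0.99 ± 0.33 SE, edgeR adjusted p = 0.426). S100a6 ran from 23.9 to 79.2 CPM in older and from 25.5 to 360 CPM in younger tumors, and S100b from 8.76 to 13.2 and from 10.2 to 28.6 CPM, both with overlap. The family also held other sparse members, since S100a3 had 22, S100a4 49, S100a5 13 and S100g 25 reads over all 6 tumors, beside 22 for S100a8 and 9 for S100a9.

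Cytokines and receptors known to induce such genes were read from a list of 18. Il17a, Il17f and Il22, the cytokines best known for inducing antimicrobial genes, had 0 reads in all 6 tumors, and Il6 had 0 to 4. Other cytokines were counted at low levels, with 3 to 40 reads of Lif, 0 to 35 of Il1b and 2 to 18 of Tnf per tumor. These 3 were among the 10 genes of the list that were tested, with 0 past the adjusted threshold (median log2 fold change 0.30). At an unadjusted p under 0.05, 2 of the 10 were higher in older tumors, against 5.28% of all genes (edgeR). Il6r, the receptor chain for interleukin 6, was at 61.7, 50.5 and 24.3 CPM in older tumors 102, 107 and 116 and at 7.95, 15.4 and 3.58 CPM in younger tumors 157, 158 and 167 (log2 fold change 2.32 ± 0.57 SE, edgeR adjusted p = 0.314). Lifr, the receptor for leukemia inhibitory factor, overlapped between the groups at 119 to 302 CPM and 95 to 122 CPM. Il17ra, a receptor chain for interleukin 17, was at 43.2 to 58.2 CPM in older and 33.4 to 39.6 CPM in younger tumors (log2 fold change 0.51 ± 0.24 SE, edgeR adjusted p = 0.632). Of 13 transcription factors and sensors, 12 were tested, 0 passed the adjusted threshold, and 0 reached an unadjusted p under 0.05 (median log2 fold change -0.06). The smallest p-values were those of Tlr2 (log2 fold change 0.85), Socs3 (-0.43) and Nfkbiz (0.62), with edgeR adjusted p from 0.738 to 0.864. In the same list Cebpb and Cebpd, C/EBP factors of the acute phase response, peaked in tumor 158 at 89.7 and 75.0 CPM, and Stat3 did so at 367 CPM. Cebpa, Rela, Ly96 and Myd88 also peaked there. Nfkbiz peaked in tumor 102, Nfkb1 in tumor 107, Tlr2 in tumor 116, Socs3 in tumor 157 and Tlr4 in tumor 167. Cebpd was lowest in tumor 107. The part of these factors in the levels of the members was not tested. Of the 9 receptors of the member proteins 5 were tested and 0 passed, with a median of 0.23, led by Lrp2 (log2 fold change -1.64), Lrp1 (0.73) and Tlr4 (0.24), with edgeR adjusted p from 0.601 to 0.930. Slc22a17 and Lrp2, which bind lipocalin 2, had 132 to 353 and 7 to 150 reads per tumor.

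Iron handling genes surround the work of lipocalin 2, lactoferrin and ceruloplasmin, and all 14 on the list were tested. None passed the adjusted threshold (edgeR, 0 genes), and at an unadjusted p under 0.05 there were 3 higher and 1 lower in older tumors (median log2 fold change 0.46). All genes gave 5.28% higher and 3.27% lower. Age groups did not overlap for 4 of the 14, all higher in older tumors and Hephl1 and Tfrc among them, against 6.57% of all genes. Hephl1, a ferroxidase related to ceruloplasmin, was at 56.4, 102 and 33.7 CPM in older tumors 102, 107 and 116 and at 6.74, 3.36 and 0.716 CPM in younger tumors 157, 158 and 167 (log2 fold change 4.10 ± 0.73 SE, edgeR adjusted p = 0.217). Cp itself did not separate the groups. Tfrc, the receptor through which cells take up transferrin, was at 442, 303 and 394 CPM against 155, 219 and 135 CPM (log2 fold change 1.16 ± 0.29 SE, edgeR adjusted p = 0.316). Slc11a1, a metal transporter of phagocytes, ranged from 4.28 to 17.9 CPM in older and from 1.77 to 6.74 CPM in younger tumors.

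Among 10238 other tested genes with a mean of at least 10 CPM, the profiles nearest to each member were found by the root mean square difference of centered log2 CPM over the 6 tumors. For Lcn2 these were Bhlhe41 (0.26), Cers4 (0.36) and Gch1 (0.47). For Cp they were Plscr1 (0.17), Zbtb10 (0.20) and Ror1 (0.21), and for Lbp Coro2a (0.35), Tspan7 (0.38) and Sbk1 (0.41). For Lpo they were Dmkn (0.79), Smoc1 (0.85) and Ceacam4 (0.90). The profiles were not scaled, so the difference can grow with the spread of a gene, and Lpo had the largest spread of the tested members. For Slpi they were Atp7b (0.26), Pgr (0.27) and Orai2 (0.39). Pgr, which encodes the progesterone receptor, measured 45.1, 372 and 88.1 CPM in older tumors 102, 107 and 116 and 115, 26.5 and 110 CPM in younger tumors 157, 158 and 167, and like Slpi it was highest in tumor 107 and lowest in tumor 158. A match over 6 tumors is a description of these libraries.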

How the data were processed

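Per the study's methods, RNA of 6 flash-frozen rat mammary tumors was depleted of ribosomal RNA (the labels name polyA RNA) and sequenced in pairs of 150 bases (100 in the labels). The authors checked, trimmed and aligned reads above Q30, marked duplicates and counted reads per gene with HTSeq 0.13.5 on build mRatBN7.2 (submitters' processing notes). The deposited values are raw counts without normalization, and whether duplicates were removed, the annotation and the strand setting are not given in the sources used here. Tumor numbers mapped columns to samples, and 0 columns were left unused. Rows without a gene name (4367, with 2.87% of the counts) were kept. A symbol on several rows was represented by the row with the most counts.

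In R 4.3.3, edgeR 4.0.16 (filterByExpr, TMM, quasi-likelihood test, Benjamini-Hochberg adjustment over all 14060 genes, threshold 0.05) compared older with younger tumors without covariates. Standard errors were calculated back from the F statistic, and log2 CPM used a prior count of 2. DESeq2 1.42.0, limma-voom (limma 3.58.1), 2 other scalings, 2 other filters, removal of the 10 most abundant genes and of each tumor were alternatives. The fit was checked on simulated counts. Promoter windows came from RefSeq, GRCr8, in which all 10 symbols were found, and the motifs were chosen with these sequences seen. The members and gene lists were chosen with earlier results of these data known. All members are named, and of each list of related genes (not of the cell type markers) the tested genes with the smallest p, at most 3. Other genes, given mainly by level (such as Alb, Cebpb, Cd177, Crp, Lif, Retnlg, Stat3 and Tf), were chosen after their values were seen.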

Additional observations from a re-analysis of the deposited data

How the results depend on the processing

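No paired analysis was possible because no replicate number is shared by an older and a younger tumor. The number of genes called, 0 of 14060 with edgeR (1203 at an unadjusted p under 0.05), was 346 with DESeq2's Wald test and 1 with all genes of at least 1 count, and 0 to 0 with 1 tumor left out. The number of members called was 0 under every alternative run. The number of members with an unadjusted p under 0.05 was 0 with all tumors and 0 to 3 with 1 tumor left out, the 3 being Lcn2, Lpo and Lbp without tumor 167, where 1212 of 14562 genes (8.32%) passed. Over all 6 such fits 5.82% to 10.5% of genes did.

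Of 65 member values under the alternatives, 59 kept their sign and side of the threshold and 6 changed sign: Cp at 0.00 with library totals, 0.19 with limma-voom, 0.11 without tumor 107 and 0.82 without tumor 158, Slpi at -0.76 without tumor 107, and Lpo at 0.71 without tumor 158. With 1 tumor left out, Lcn2 ranged from -2.00 to -0.20, Lpo from -3.56 to 0.71, Cp from -0.40 to 0.82, Lbp from -1.25 to -0.05 and Slpi from -0.76 to 1.31. Limma-voom, which averages log values, gave -0.87 for Lcn2, -0.76 for Lpo and -0.27 for Lbp. Adjusted p ranged from 0.509 to 0.980 for Lcn2 over 13 alternatives. Depth limited Ltf, S100a8, S100a9, Camp and Defb1, at or near 3 counts.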

Other observations

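Retnlg, Hmox1 and Chi3l1 were chosen after their values were seen. Retnlg, which encodes a resistin-like protein of neutrophils, had 119 reads in tumor 102, 5 in tumor 107 and 0 in tumors 116, 157, 158 and 167. Hmox1, the heme-degrading enzyme that frees iron, measured 132, 15.9 and 28.6 CPM in older tumors 102, 107 and 116 and 558, 326 and 46.3 CPM in younger tumors 157, 158 and 167 (log2 fold change -2.40 ± 1.02 SE, edgeR adjusted p = 0.575). Chi3l1, a secreted chitinase-like protein, ran from 59.7 to 579 CPM in older and from 156 to 1330 CPM in younger tumors, with overlap (log2 fold change -1.40 ± 0.95 SE, edgeR adjusted p = 0.793).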
